A study of Drosophila melanogaster with 24 samples.

Results

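Heads of control male flies (Drosophila melanogaster) were compared with thoraces of control male flies. Of the 24 RNA-seq libraries of the study, 9 were taken by their labels, all from males at 10 days of age. They were 3 head libraries of genotype Mhc>+ (the isogenic control), 3 thorax libraries of genotype Mhc>GFPRNAi and 3 thorax libraries of genotype Mhc>whiteRNAi. The study expressed RNAi transgenes or Amyrel in muscle and sequenced thoraces and heads, and the libraries used here are its controls.

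All 9 libraries carry the Mhc driver, which is active in muscle and therefore also in the muscles of the head. The thorax controls express an RNAi transgene against GFP, a jellyfish protein that flies lack, or against white (w), the transporter gene that colours the eye. The head controls carry the driver without such a transgene. The labels describe the heads as enriched for brains and retinas and the thoraces as mostly skeletal muscle, and they do not say how many flies went into a library. They call the libraries biological replicates and say no more on their origin, so p-values measure the spread between these libraries, which may in part be technical. Genotype and the form of the library titles, and with them a possible library batch, differ with tissue, so these cannot be told apart from tissue. For this reason a gene is given as a large difference only where it had the same sign against each thorax control, an adjusted p under 0.05 in each contrast and a log2 fold change of at least 2 (4-fold) in each.

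The head of the fly carries the compound eyes, the smell and taste organs of the antennae and mouthparts, and the brain. The thorax is filled largely by flight and leg muscle, and it also holds the ventral nerve cord and a stretch of gut. In photoreceptors, rhodopsin activates a G protein and phospholipase C, which opens TRP-type channels. In flight muscle, myosin and actin filaments are held in sarcomeres by connecting proteins and are fed by densely packed mitochondria.

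Reads assigned to genes came to 48.8 to 75.7 M per library in heads, against 31 to 32.9 M in thoraces. Reads were detected for 12660 to 13382 genes in head libraries and 12584 to 13398 genes in thorax libraries. Levels are given below in CPM (counts per M reads in genes), with library sizes corrected by edgeR's TMM factors. CPM are not divided by gene length, so levels are compared between tissues and not between genes. In these bulk libraries fewer cells of a type and less RNA per cell cannot be told apart. The tissue labels were checked against defining markers. Photoreceptor markers were higher in every head library than in any thorax library, and the flight muscle markers fln and TpnC4 were below 1 CPM in heads. Neuronal and glial markers were present in both tissues, as was Mhc, the muscle myosin heavy chain.

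**Figure D1:**
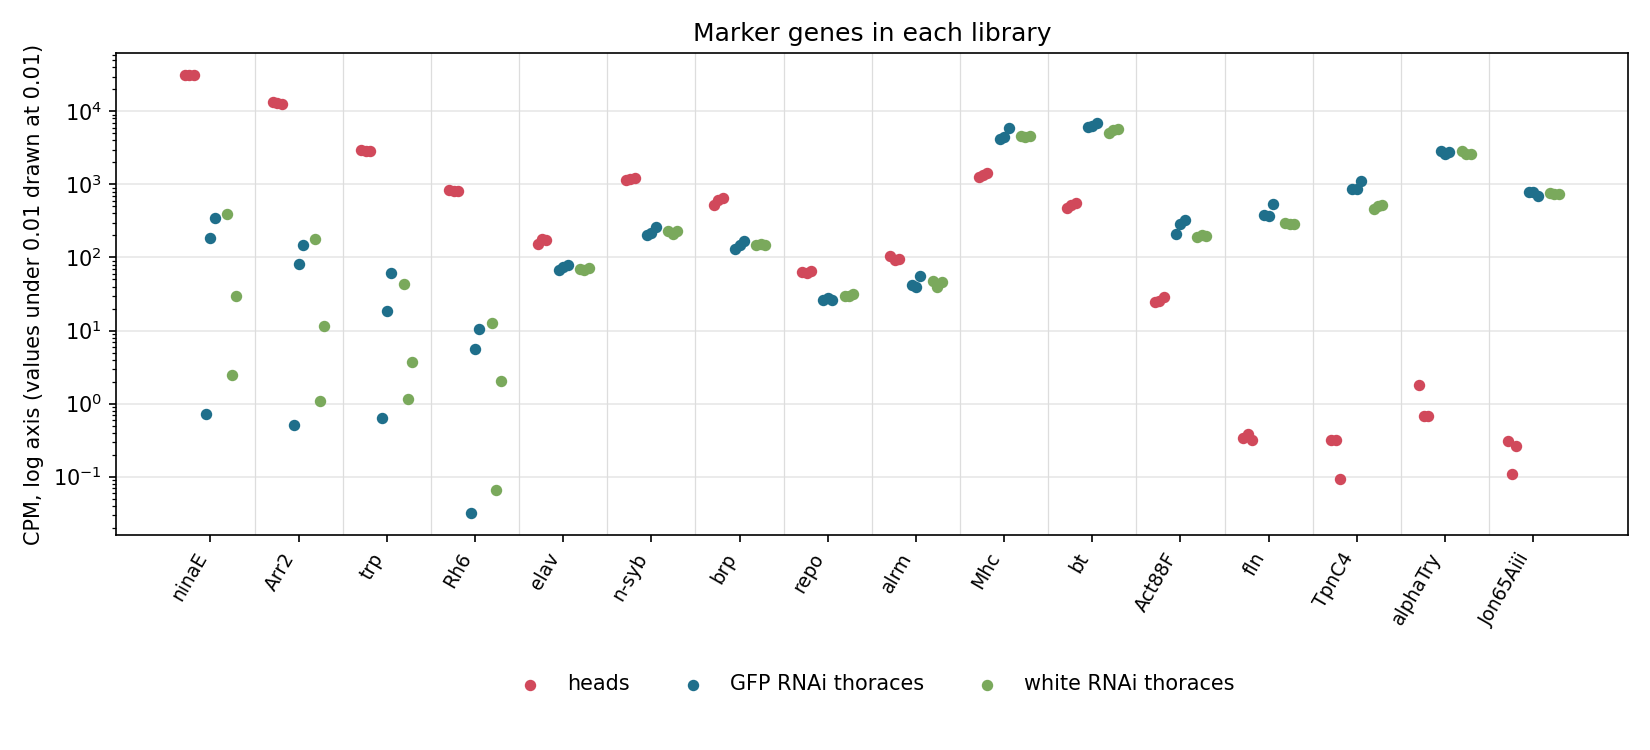
CPM of 16 marker genes on a log axis in each of the 3 head libraries, 3 GFP RNAi thorax libraries and 3 white RNAi thorax libraries; each point is 1 library, and values under 0.01 are drawn at 0.01. Photoreceptor genes (ninaE to Rh6) lie above every thorax library in heads while spreading widely among thoraces, neuronal and glial genes (elav to alrm) lie closer together, and muscle and gut genes (Mhc to Jon65Aiii) are lower in heads.

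Of 15682 genes in the files, 11029 passed the filter on low counts and were tested. Large differences numbered 735 genes higher in heads (6.66% of genes tested) and 999 genes lower in heads (9.06%). Without a limit on size, 3863 genes were higher in heads against both thorax controls (35%) and 3853 were lower (34.9%). The median log2 fold change over all genes tested was -0.01. Among the large differences, no head library overlapped any thorax library for 732 of the higher and 944 of the lower genes. This holds for every large difference named below except AttC, Dro, Acp36DE, Acp26Aa, RpL22-like and RpS19b. Such a lack of overlap was a condition for genes named by level or fold. The limits on p and size favour it, so it is no separate result, and its share over all genes tested is not given. Scaling on total counts alone moved the median of all genes up by 0.23, and scaling on ribosomal protein genes moved it up by 0.27. Fold changes below are relative to the median of the main scaling.

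The thorax controls differed far less from each other than from heads. In the same fit 1455 genes (13.2%) were called between white RNAi and GFP RNAi thoraces, and 51 of these (0.462%) had a log2 difference of at least 2. Against heads, 8634 genes (78.3%) were called with white RNAi thoraces and 8522 genes (77.3%) with GFP RNAi thoraces. Both head contrasts share the same 3 head libraries.

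**Figure D2:**
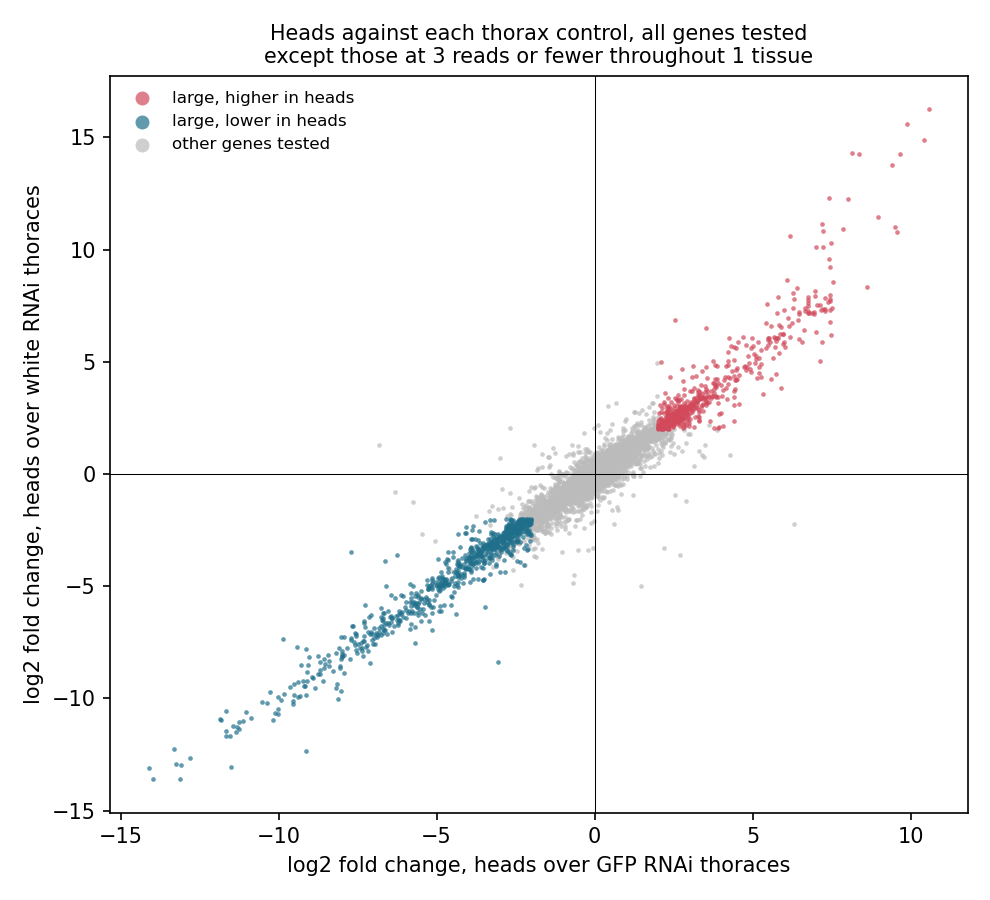
Log2 fold change of each gene tested, heads over GFP RNAi thoraces on the x axis and heads over white RNAi thoraces on the y axis; red and blue points are large differences and grey points all others, and genes at 3 reads or fewer in every library of a tissue are left out. Most genes lie along the diagonal, and both axes share the head libraries.

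Phototransduction genes were the clearest group higher in heads. Of 36 members, all of which passed the filter, 26 were large differences higher in heads and none was lower, with a median log2 fold change of 6.02. Summed over members, their level was 77400 to 78400 CPM in head libraries, against 1320 to 2400 CPM in thorax libraries. The other members were closer between tissues. Gprk1, a receptor kinase, had 129 to 133 CPM in heads against 95.5 to 116 CPM in thoraces, and rdgA, a diacylglycerol kinase, 516 to 644 CPM in heads against 234 to 258 CPM in thoraces. ninaD, a scavenger receptor for carotenoid uptake, had the opposite sign, with 2.84 to 3.44 CPM in heads against 6.08 to 33.7 CPM in thoraces, and passed the test against GFP RNAi thoraces alone.

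The 5 opsins that passed the filter were all large differences. ninaE, which encodes the major rhodopsin Rh1 of the outer photoreceptors, had 31570, 31200 and 31390 CPM in heads, against 0.728, 186 and 352 CPM in GFP RNAi thoraces and 396, 2.5 and 29.6 CPM in white RNAi thoraces. Its log2 fold change was 7.62 ± 1.63 SE, adjusted p = 0.0124. Head libraries were nearly equal, and thorax libraries were spread widely, with no overlap between tissues.

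Opsins of the inner photoreceptors, Rh3 and Rh4 in the ultraviolet-sensitive cells and Rh5 and Rh6 in the cells beneath them, were likewise highest in GFP RNAi replicates 2 and 3 and white RNAi replicate 1 among thoraces. Rh4 had 1566, 1475 and 1387 CPM in heads, against 0.127, 10.6 and 18.8 CPM in GFP RNAi thoraces and 23.9, 0.40 and 2.77 CPM in white RNAi thoraces. Rh6 had 838, 823 and 802 CPM in heads, against 0.0316, 5.61 and 10.4 CPM in GFP RNAi thoraces and 12.8, 0.0666 and 2.05 CPM in white RNAi thoraces. Log2 fold changes were 7.09 ± 0.91 SE, adjusted p = 0.000602 for Rh3, and 7.29 ± 1.07 SE, adjusted p = 0.00141 for Rh4. For Rh5 the log2 fold change was 7.11 ± 0.47 SE, adjusted p = 6.67e-06, and for Rh6 it was 7.32 ± 0.90 SE, adjusted p = 0.000429.

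Downstream of rhodopsin, the arrestins that switch it off were large differences too. Arr2 had 13320, 12900 and 12540 CPM in heads, against 0.506, 80.4 and 148 CPM in GFP RNAi thoraces and 179, 1.1 and 11.6 CPM in white RNAi thoraces (log2 fold change 7.53 ± 1.56 SE, adjusted p = 0.0102). Arr1 had 9485 to 10360 CPM in heads, against 1.17 to 133 CPM in thoraces (log2 fold change 7.56 ± 1.41 SE, adjusted p = 0.00592). GFP RNAi replicate 1 and white RNAi replicate 2 were again the lowest thorax libraries and white RNAi replicate 1 the highest.

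The channels and their scaffold followed. The light-gated channel gene trpl had 4663, 4300 and 4475 CPM in heads, against 2.75, 33.8 and 58.4 CPM in GFP RNAi thoraces and 63.3, 2.4 and 6.01 CPM in white RNAi thoraces (log2 fold change 7.35 ± 1.09 SE, adjusted p = 0.00168), and trp had 2893 to 2989 CPM in heads, against 0.633 to 61.8 CPM in thoraces (log2 fold change 7.13 ± 1.23 SE, adjusted p = 0.00439). inaD, the scaffold that gathers channel, kinase and phospholipase, had 514 to 584 CPM in heads, against 0 to 7.51 CPM in thoraces (log2 fold change 7.57 ± 0.77 SE, adjusted p = 0.000138). ninaC, a myosin with a kinase domain, had 2737 to 2881 CPM in heads, against 0.0633 to 57 CPM in thoraces, and chp (chaoptin), an adhesion protein of the light-sensing membrane, had 1746 to 1857 CPM in heads, against 0.633 to 35.3 CPM in thoraces. None of these overlapped between tissues. Lack of overlap was a condition of naming genes by level, as for trp and ninaC.

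norpA, the phospholipase C of the cascade, stood apart from these members. It had 1368, 1500 and 1505 CPM in heads, against 118, 132 and 162 CPM in GFP RNAi thoraces and 143, 129 and 132 CPM in white RNAi thoraces (log2 fold change 3.42 ± 0.09 SE, adjusted p = 1.13e-08), so all 6 thorax libraries held it at a similar level. Galpha49B, the Gq alpha subunit, showed the same evenness, with 924 to 948 CPM in heads, against 202 to 228 CPM in thoraces.

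The thorax libraries fell apart by photoreceptor RNA. Expressed as a percentage of the head mean, the medians of all 26 members were 0.0467%, 0.745% and 1.91% in GFP RNAi replicates 1 to 3. In white RNAi replicates 1 to 3 they were 1.8%, 0.042% and 0.176%. Of the 26 members, 18 were under 0.3% in GFP RNAi replicate 1 and in white RNAi replicate 2, a split chosen after the values were seen. The low values of the 18 genes in those libraries follow from that choice. For these 18 genes the median was 0.0149%, 0.685% and 1.42% of the head level in GFP RNAi replicates 1 to 3. In white RNAi replicates 1 to 3 it was 1.72%, 0.0196% and 0.122%. The 18 genes ranged from 0.542 to 1.02% in GFP RNAi replicate 2, from 0.936 to 2.11% in GFP RNAi replicate 3 and from 1.19 to 3.29% in white RNAi replicate 1. In the libraries with less of this RNA they ranged from 0 to 0.215% in GFP RNAi replicate 1 and from 0 to 0.258% in white RNAi replicate 2. In white RNAi replicate 3 they ranged from 0.083 to 0.317%. The 8 other members had medians of 8.93%, 9.94% and 8.56% in the 3 libraries highest in ninaE, against 8.21%, 7.23% and 8.1% in the other 3. The same 3 libraries were highest and the range was far smaller. By the split none of these 8 was under 0.3% in both GFP RNAi replicate 1 and white RNAi replicate 2. That choice favours a smaller range, so the contrast of ranges is no separate result. For 23 synaptic release genes the medians were likewise highest in those 3 libraries, at 36.8%, 39.7% and 36.7%, against 34.4%, 35.9% and 36.1% in the other 3. Whether eye RNA was carried over into thorax libraries was not tested.

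**Figure D3:**
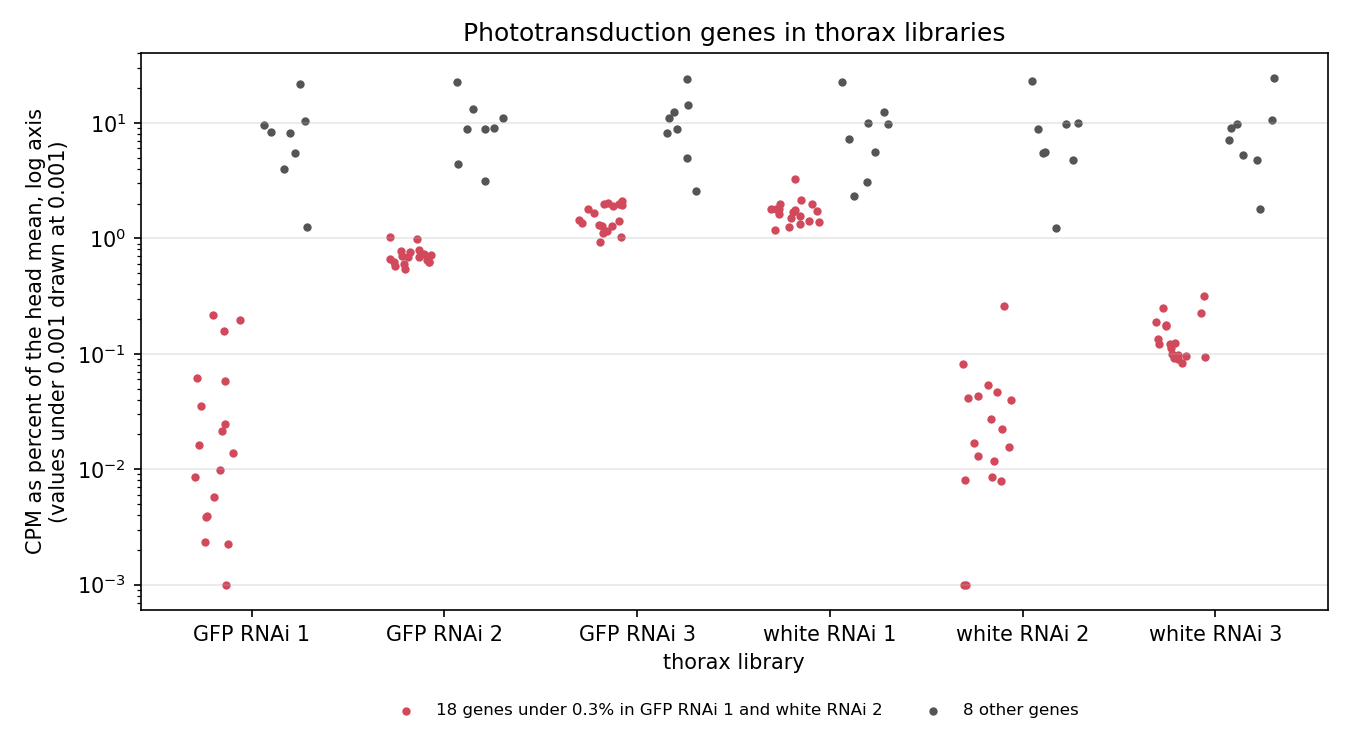
CPM of 26 phototransduction genes in each thorax library as a percentage of their head mean, on a log axis; red points are the 18 genes under 0.3% in GFP RNAi 1 and white RNAi 2, grey points the 8 others, and values under 0.001 are drawn at 0.001. The red medians range from 0.0149% to 1.72% between libraries, and the grey medians from 7.23% to 9.94%. The red points are low in GFP RNAi 1 and white RNAi 2 by the choice of these genes. The same choice keeps the grey points from being under 0.3% in both.

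Without GFP RNAi replicates 2 and 3 and white RNAi replicate 1, the 3 thorax libraries highest in ninaE, the photoreceptor fold changes were larger. The log2 fold change of ninaE was then 13.17 (adjusted p = 0.000902), that of Arr2 12.82 and that of trp 11.22, while that of norpA was 3.56. On these 6 libraries 26 of 36 members were again large differences, and the median of the group became 7.53. The libraries left out were chosen by their ninaE level. Larger fold changes of ninaE and of genes high in the same libraries follow from that choice and are no separate result. They show only that the size of these fold changes depends on which thorax libraries are used.

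Most eye pigment genes were not large differences. Of 20 members, 19 passed the filter and 3 were large differences higher in heads (15.8%, against 6.66% of all genes tested). None was lower (9.06% of all genes tested were), and the median log2 fold change was 0.40. The 3 were bw and w, subunits of pigment precursor transporters, and se, an enzyme of the red pigment pathway, of which bw and se were picked out after their values were seen. bw had 50.3, 47.4 and 47.7 CPM in heads, against 0.664, 1.0 and 1.08 CPM in GFP RNAi thoraces and 1.28, 0.533 and 0.561 CPM in white RNAi thoraces. se had 33.8 to 37.7 CPM in heads, against 0.19 to 1.06 CPM in thoraces. On the log2 scale the difference was 5.83 ± 0.17 (SE) for bw and 5.92 ± 0.31 (SE) for se.

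w itself had 8.23, 8.85 and 9.4 CPM in heads, against 1.55, 1.57 and 1.53 CPM in GFP RNAi thoraces and 1.89, 1.67 and 1.68 CPM in white RNAi thoraces (log2 fold change 2.42 ± 0.08 SE, adjusted p = 2.85e-08). Thoraces that express the RNAi against w had no less of its transcript than GFP RNAi thoraces. w overlaps another gene in the annotation, and its low level in thoraces limits this check of the labels. The most abundant pigment members were not large differences: Hn, a phenylalanine hydroxylase, had 501 to 621 CPM in heads against 342 to 444 CPM in thoraces, and lt, a vesicle trafficking protein, had 96.2 to 100.3 CPM in heads against 203 to 235 CPM in thoraces.

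Neuronal genes were higher in heads, with smaller medians than the phototransduction genes. All 23 members of the synaptic release group passed the filter and all were higher in heads at an adjusted p under 0.05 in both contrasts (35% of all genes tested were), with a median log2 fold change of 1.48. Large differences numbered 3 (13%, against 6.66% of all genes tested): n-syb, Appl and Rim. n-syb, the vesicle SNARE of synapses, had 1167, 1198 and 1208 CPM in heads, against 200.3, 218 and 265 CPM in GFP RNAi thoraces and 233, 211 and 228 CPM in white RNAi thoraces (log2 fold change 2.40 ± 0.08 SE, adjusted p = 3.71e-08). cpx, which clamps vesicle fusion, had 2163 to 2431 CPM in heads, against 570 to 724 CPM in thoraces (log2 fold change 1.90 ± 0.08 SE, adjusted p = 1.15e-07), just under the size limit. Syt1, the calcium sensor of release, had 937 to 1173 CPM in heads, against 325 to 409 CPM in thoraces (log2 fold change 1.60 ± 0.09 SE, adjusted p = 7.45e-07), and unc-13, which primes vesicles, had 934 to 1218 CPM in heads, against 409.8 to 504 CPM in thoraces. Scaling on total counts or on ribosomal protein genes raised the large differences of this group to 7.

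The pan-neuronal marker elav had 152 to 180.1 CPM in heads, against 66.5 to 79.8 CPM in thoraces, and brp, a scaffold of the active zone, had 527 to 650.5 CPM in heads, against 129 to 166 CPM in thoraces. Their log2 fold changes were 1.24 ± 0.07 (SE) for elav and 2.00 ± 0.08 (SE) for brp. Neither counted as a large difference, and brp lay at the limit itself.

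Of 32 transmitter receptors, 17 were large differences higher in heads and none was lower, with a median log2 fold change of 2.09. DopEcR, a receptor for dopamine and ecdysone, had 410.2, 431 and 442 CPM in heads, against 54, 63.4 and 74.8 CPM in GFP RNAi thoraces and 73, 70.1 and 71.2 CPM in white RNAi thoraces (log2 fold change 2.66 ± 0.08 SE, adjusted p = 2.62e-08). The nicotinic subunit nAcRbeta-64B had 344 to 373 CPM in heads, against 84.1 to 106 CPM in thoraces (log2 fold change 1.92 ± 0.07 SE, adjusted p = 6.65e-08), and the GABA-gated channel Rdl had 266 to 355 CPM in heads, against 84.9 to 127 CPM in thoraces (log2 fold change 1.53 ± 0.12 SE, adjusted p = 1.41e-05). GluClalpha, a glutamate-gated chloride channel, was near equal, with 197 to 246 CPM in heads, against 185 to 239 CPM in thoraces. The member farthest from the rest was ort, picked out after its values were seen: this histamine receptor of neurons that photoreceptors contact had 16.5 to 19.4 CPM in heads, against 0 to 0.224 CPM in thoraces (log2 fold change 7.39 ± 0.35 SE, adjusted p = 5.19e-07).

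Enzymes and carriers of transmitters included 3 large differences higher in heads among 20 members (15%, against 6.66% of all genes tested). The median log2 fold change was 1.44. Gad1, which makes GABA, had 395 to 466 CPM in heads against 226 to 292 CPM in thoraces, and Vmat, which loads amines into vesicles, had 386 to 429.8 CPM in heads against 182 to 199 CPM in thoraces. Ddc, an enzyme of dopamine and serotonin synthesis, had 275 to 298 CPM in heads against 117 to 142 CPM in thoraces, and VGlut, the vesicular glutamate carrier, 226 to 257 CPM in heads against 92.3 to 109.6 CPM in thoraces. All of these were higher in heads in both contrasts without reaching the size limit. The 3 large ones were Cha, prt and CG9317 (CarT), a carcinine transporter of photoreceptors, which had 108 to 112 CPM in heads, against 0.799 to 2.66 CPM in thoraces and was named after its values were seen. ple, the tyrosine hydroxylase that also serves the cuticle, had the opposite sign, with 77.3 to 81.8 CPM in heads against 171 to 227 CPM in thoraces.

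Of 25 voltage-gated channel genes, 5 were large differences higher in heads (20%, against 6.66% of all genes tested). The median log2 fold change was 1.48. unc79 had 557, 613 and 665 CPM in heads, against 99, 106 and 126 CPM in GFP RNAi thoraces and 111, 111 and 100.4 CPM in white RNAi thoraces (log2 fold change 2.49 ± 0.08 SE, adjusted p = 3.32e-08). CG18437, the unc80 gene, had 415 to 498 CPM in heads, against 70.6 to 88.3 CPM in thoraces (log2 fold change 2.55 ± 0.08 SE, adjusted p = 2.02e-08). Both encode partners of the sodium leak channel na, which was also higher, with 146 to 180.2 CPM in heads against 42 to 52.2 CPM in thoraces. NaCP60E, a sodium channel homologue, had 569 to 789 CPM in heads against 195 to 239.9 CPM in thoraces, and slo, the calcium-activated potassium channel of nerve and muscle, had 516 to 619 CPM in heads against 330.5 to 393 CPM in thoraces. The receptors of the neuromuscular junction had a median log2 fold change of the opposite sign, -0.97, and none of 6 was a large difference. In both contrasts 4 were lower and 1 was higher (34.9% and 35% of all genes tested were). Among them KaiRIA (GluRIID) had 5.97 to 6.61 CPM in heads against 12.8 to 16.2 CPM in thoraces and GluRIIA 20.6 to 21.9 CPM in heads against 11.9 to 15.3 CPM in thoraces.

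Many neuropeptide genes were higher in heads. Of 31 genes 28 passed the filter, of which 13 were large differences higher in heads (46.4%) and 2 lower (7.14%, below the 9.06% of all genes tested), with a median log2 fold change of 1.66. sNPF, a feeding peptide, had 176, 188 and 179 CPM in heads, against 36.4, 39.1 and 44.2 CPM in GFP RNAi thoraces and 39.1, 37.5 and 41.1 CPM in white RNAi thoraces (log2 fold change 2.20 ± 0.06 SE, adjusted p = 7.71e-09), and Dms (myosuppressin) had 135 to 155 CPM in heads, against 2.79 to 5.29 CPM in thoraces (log2 fold change 5.13 ± 0.15 SE, adjusted p = 2.36e-08). CCHa2 had 254 to 372 CPM in heads against 126 to 178 CPM in thoraces and Nplp1 100.2 to 116 CPM in heads against 168 to 227 CPM in thoraces, so that Nplp1 was lower in heads, short of the size limit. Genes made mainly by brain cells were at the upper end, as named after their values were seen. Ilp2, an insulin-like peptide of brain cells, had 97.4, 84.9 and 71.9 CPM in heads, against 0.0316, 0.167 and 1.32 CPM in GFP RNAi thoraces and 0.16, 0.0333 and 0.132 CPM in white RNAi thoraces. hug, made by neurons of the subesophageal brain, had 50.3 to 51.5 CPM in heads, against 0 to 0.0333 CPM in thoraces. The lower genes were Lk (leucokinin), with 3.01 to 3.51 CPM in heads against 20.7 to 27.3 CPM in thoraces, and burs, a hormone of cuticle tanning, with 0 to 0.0119 CPM in heads against 0.382 to 0.664 CPM in thoraces.

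Glial genes leaned towards heads by small amounts. None of 15 members was a large difference, and the median log2 fold change was 0.57. In both contrasts 9 were higher in heads and 1 was lower (35% and 34.9% of all genes tested were). Eaat2, an amino acid transporter, had 495 to 535 CPM in heads, against 121 to 147 CPM in thoraces (log2 fold change 1.99 ± 0.05 SE, adjusted p = 7.83e-09) and lay at the limit of size, whereas Eaat1, the glutamate transporter of astrocytes, had 502 to 544 CPM in heads, against 589 to 709.7 CPM in thoraces (log2 fold change -0.34 ± 0.06 SE, adjusted p = 0.00486). Gs2, a glutamine synthetase, had 1195 to 1276 CPM in heads against 1116 to 1273 CPM in thoraces, and nrv2, a sodium pump subunit of glia, 357 to 368 CPM in heads against 314 to 360.5 CPM in thoraces. The glial master factor repo had 61.9 to 64.5 CPM in heads against 25.9 to 31.5 CPM in thoraces. The glial marker alrm had 93.6 to 103 CPM in heads against 39.1 to 56.3 CPM in thoraces. Their log2 fold changes, 1.16 for repo and 1.11 for alrm, were close to the 1.24 of the neuronal marker elav.

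Smell receptors were found mostly in heads, at low levels. All 29 chemosensory receptors and cofactors on the list passed the filter, and 18 were large differences higher in heads. The median log2 fold change was 4.68 as fitted, and 3.71 with the 4 members that had no read in any thorax library set to their lower bounds. Leaving out genes at 3 reads or fewer in every library of a tissue left 15 members, of which 4 were large differences. Orco, the coreceptor with which odorant receptors form channels, had 77.8, 73.9 and 85.4 CPM in heads, against 0.0949, 0.234 and 0.973 CPM in GFP RNAi thoraces and 0.128, 0.20 and 0.297 CPM in white RNAi thoraces (log2 fold change 8.05 ± 0.27 SE, adjusted p = 5.49e-08). Ir25a, a coreceptor of the ionotropic family, had 11.4 to 13.4 CPM in heads, against 5.39 to 6.2 CPM in thoraces (log2 fold change 1.13 ± 0.07 SE, adjusted p = 2.1e-06). Snmp1, a membrane protein of pheromone-sensing neurons, had 54.6 to 60.9 CPM in heads against 16.1 to 18.6 CPM in thoraces, and Snmp2 went the other way with 28.6 to 29.6 CPM in heads against 53.5 to 66.3 CPM in thoraces.

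Or47b, a receptor for fly odours in the antenna and picked out after its values were seen, averaged 3.91 CPM in heads and had no read in any thorax library. Set against 3 reads per thorax library (0.0991 CPM), it was at least 39.4-fold higher in heads. Taste receptors known from legs as well as mouthparts were closer between tissues, such as Gr5a with 0.279 to 0.416 CPM in heads against 0.167 to 0.533 CPM in thoraces and Gr66a with 0.801 to 1.01 CPM in heads against 0.486 to 0.673 CPM in thoraces.

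Odorant binding proteins, which carry odours through the fluid around sensory neurons, spread widely. Of 32 genes, 15 were large differences higher in heads and 2 were lower, with a median log2 fold change of 1.48. Pbprp2 (Obp19d) had 1662, 1518 and 1419 CPM in heads, against 213, 248 and 249 CPM in GFP RNAi thoraces and 203, 203 and 192 CPM in white RNAi thoraces (log2 fold change 2.82 ± 0.07 SE, adjusted p = 6.95e-09). Obp44a had 588 to 667 CPM in heads, against 60.8 to 180.2 CPM in thoraces (log2 fold change 2.61 ± 0.13 SE, adjusted p = 2.13e-06), and it missed the limit in a contrast without GFP RNAi replicate 1 and white RNAi replicate 2. In contrast, Obp99c had 779 to 926 CPM in heads against 627 to 839 CPM in thoraces, and Obp99b 269.5 to 490.3 CPM in heads against 105 to 229.5 CPM in thoraces. Members at the upper end, named after their values were seen, were Obp19a with 52.7 to 59.4 CPM in heads against 0 to 0.521 CPM in thoraces, a10 with 167 to 177 CPM in heads against 0 to 2.02 CPM in thoraces and Os-E with 216 to 247 CPM in heads against 0.20 to 3.58 CPM in thoraces. The lower genes were Obp56a with 4.51 to 7.88 CPM in heads against 75.1 to 117 CPM in thoraces and Obp19b with 17.2 to 18.2 CPM in heads against 119 to 138 CPM in thoraces.

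Genes of the antennal ear, whose relatives also serve the stretch sensors of the thorax and legs, did not stand out. None of 10 was a large difference, and 2 were higher and 4 lower in both contrasts (35% and 34.9% of all genes tested were). nompC, a mechanosensory channel, had 8.37 to 9.22 CPM in heads, against 26.5 to 32 CPM in thoraces (log2 fold change -1.75 ± 0.07 SE, adjusted p = 3.51e-08). btv, a dynein of sensory cilia, had 14.1 to 16.2 CPM in heads against 6.9 to 8.96 CPM in thoraces. nompA, a protein that anchors cilia, had 8.46 to 10.7 CPM in heads against 11.6 to 19.5 CPM in thoraces, and osm-1, a ciliary transport protein, 8.09 to 9.55 CPM in heads against 11.9 to 15.5 CPM in thoraces. The median log2 fold change of -0.14 changed sign when libraries were scaled on total counts (0.09) or on ribosomal protein genes (0.13).

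Patterning genes that give body regions their identity differed between these adult tissues along that identity. Of 24 head factors, all of which passed the filter, 15 were large differences higher in heads and none was lower, with a median log2 fold change of 2.86. Of 20 trunk factors 18 passed, of which none was a large difference higher and 5 were large differences lower in heads, with a median of -1.59.

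Among the Hox genes, Dfd, which specifies the maxillary and mandibular segments, had 35.6, 36.2 and 36.3 CPM in heads, against 0.0633, 0.167 and 0.0348 CPM in GFP RNAi thoraces and 0.0961, 0.133 and 0.0991 CPM in white RNAi thoraces (log2 fold change 8.47 ± 0.13 SE, adjusted p = 7.03e-10). pb, of the mouthparts, had 10.2 to 11.3 CPM in heads, against 1.37 to 1.97 CPM in thoraces (log2 fold change 2.70 ± 0.08 SE, adjusted p = 2.23e-08), and lab, of the most anterior Hox domain, had 2.5 to 2.95 CPM in heads, against 0.264 to 0.443 CPM in thoraces (log2 fold change 2.90 ± 0.19 SE, adjusted p = 3.79e-06). Scr, which acts in the labium and in the prothorax, was near equal, with 24, 27.9 and 28.5 CPM in heads, against 22.9, 26.2 and 27.4 CPM in GFP RNAi thoraces and 27, 25 and 27.9 CPM in white RNAi thoraces. Antp, the Hox gene of the thorax, had 3.41, 3.07 and 2.66 CPM in heads, against 45.5, 51.4 and 52.5 CPM in GFP RNAi thoraces and 48.5, 51.6 and 55.7 CPM in white RNAi thoraces (log2 fold change -4.05 ± 0.10 SE, adjusted p = 1.94e-09). Ubx, of the third thoracic and first abdominal segments, had 0.155, 0.15 and 0.168 CPM in heads, against 22.7, 22.8 and 23.5 CPM in GFP RNAi thoraces and 20.5, 21.1 and 22.1 CPM in white RNAi thoraces (log2 fold change -7.12 ± 0.07 SE, adjusted p = 2.61e-11). The Hox genes of head segments were thus higher in heads, those of trunk segments lower, and Scr overlapped between tissues.

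The abdominal Hox genes were also found in thoraces. Abd-B had 0.0357, 0.0546 and 0.0372 CPM in heads, against 3.1, 2.7 and 3.96 CPM in GFP RNAi thoraces and 2.95, 3.46 and 3.53 CPM in white RNAi thoraces (log2 fold change -6.17 ± 0.25 SE, adjusted p = 3.02e-08), and abd-A had 1 read in 1 head library and none in the others, against 6.58 to 8.62 CPM in thoraces. Antp, Ubx and Abd-B overlap other genes in the annotation.

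Eye-forming factors were present at higher levels in heads. toy and ey, the Pax6 genes, had 123 to 139 CPM in heads against 4.43 to 7.19 CPM in thoraces for toy and 55.7 to 60.4 CPM in heads against 3.87 to 4.95 CPM in thoraces for ey. Their log2 fold changes were 4.48 ± 0.12 SE, adjusted p = 1.17e-08 for toy, and 3.70 ± 0.06 SE, adjusted p = 9.3e-10 for ey. gl, needed for photoreceptor fate, had 48.3, 49 and 52.1 CPM in heads, against 0, 0.601 and 1.43 CPM in GFP RNAi thoraces and 0.993, 0.167 and 0.231 CPM in white RNAi thoraces (log2 fold change 6.48 ± 0.42 SE, adjusted p = 4.79e-06), and Pph13, which drives rhodopsin genes, had 47.2 to 48 CPM in heads, against 0.0633 to 0.903 CPM in thoraces (log2 fold change 7.19 ± 0.32 SE, adjusted p = 3.45e-07). Both were highest among thoraces in the libraries that were highest in ninaE, and without those their log2 fold changes were 11.13 for gl and 9.19 for Pph13.

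Other head factors held steadier thorax levels. Optix had 25.6 to 28.5 CPM in heads against 0.664 to 0.993 CPM in thoraces, eya 40.5 to 48 CPM in heads against 5.27 to 7.24 CPM in thoraces and oc (orthodenticle) 24.3 to 24.9 CPM in heads against 1.11 to 1.84 CPM in thoraces. Brain factors did not overlap between tissues: hbn had 7.96 to 9.44 CPM in heads against 0 to 0.139 CPM in thoraces, bsh 5.93 to 7.32 CPM in heads against 0 to 0.16 CPM in thoraces, Vsx1 4.76 to 6.18 CPM in heads against 0.20 to 0.416 CPM in thoraces and Rx 6.25 to 7.52 CPM in heads against 0.627 to 1.39 CPM in thoraces. Of the trunk list, vg, which makes wing tissue and flight muscle, had 3.22 to 3.82 CPM in heads, against 36.4 to 54 CPM in thoraces (log2 fold change -3.66 ± 0.07 SE, adjusted p = 1.16e-09). tsh, a trunk factor, had 15.5 to 16.2 CPM in heads against 41.6 to 49.6 CPM in thoraces, and sd, the partner of Vg, 95.9 to 106 CPM in heads against 137 to 155 CPM in thoraces. ap, which marks dorsal wing cells and certain brain neurons, had 94.7 to 98.6 CPM in heads against 64.4 to 79.3 CPM in thoraces and was higher in heads, short of the size limit.

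**Figure D4:**
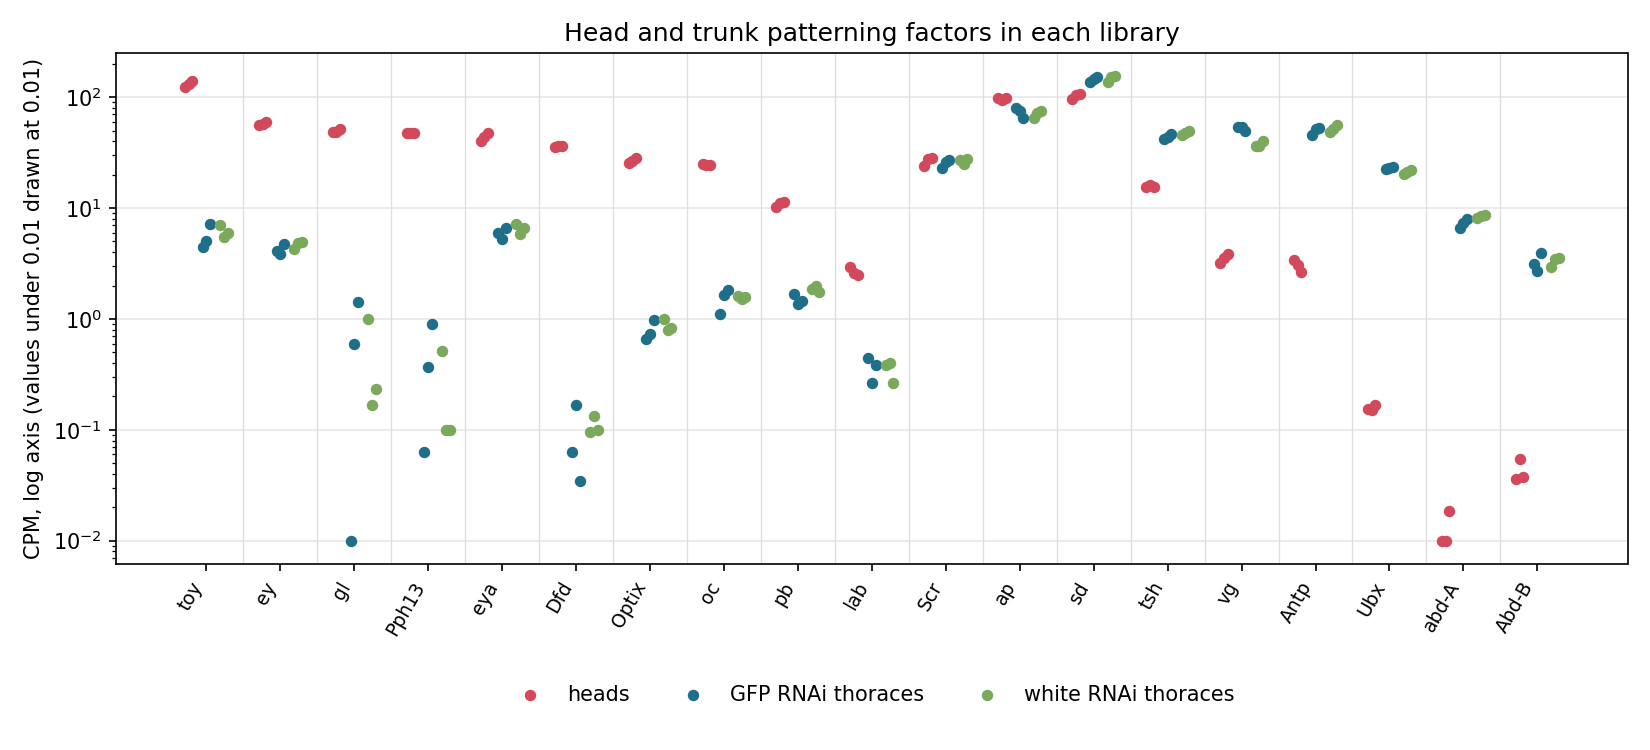
CPM of 19 patterning factors on a log axis in each head, GFP RNAi thorax and white RNAi thorax library; each point is 1 library, and values under 0.01 are drawn at 0.01. Eye factors and anterior Hox genes are higher in heads, Scr is level, and Antp, Ubx, abd-A and Abd-B are lower in heads.

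Sarcomere genes were lower in heads. Of 33 members, all of which passed the filter, 25 were large differences lower in heads and none was a large difference higher, with a median log2 fold change of -2.88. Their summed level was 6620 to 7520 CPM in head libraries, against 44200 to 61600 CPM in thorax libraries.

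Genes known from the fibrillar flight muscles were lower in heads to different degrees. fln (flightin), a thick filament protein of flight muscle, had 0.333, 0.383 and 0.317 CPM in heads, against 382, 375 and 543 CPM in GFP RNAi thoraces and 296, 287 and 289 CPM in white RNAi thoraces (log2 fold change -9.99 ± 0.20 SE, adjusted p = 7.26e-10). TpnC4, the troponin C of stretch-activated muscle, had 0.321, 0.314 and 0.0931 CPM in heads, against 874, 873 and 1109 CPM in GFP RNAi thoraces and 468, 506 and 520 CPM in white RNAi thoraces (log2 fold change -11.37 ± 0.27 SE, adjusted p = 1.84e-09). Act88F, the flight muscle actin, had 24.6, 25.5 and 28.9 CPM in heads, against 208, 284 and 322 CPM in GFP RNAi thoraces and 191, 204 and 197 CPM in white RNAi thoraces (log2 fold change -3.14 ± 0.14 SE, adjusted p = 1.13e-07). fln and TpnC4 were near 0 in heads and Act88F was not, and none of the 3 overlapped between tissues.

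Members common to all muscles were lower in heads but present in every head library. Mhc had 1245, 1351 and 1445 CPM in heads, against 4248, 4477 and 6003 CPM in GFP RNAi thoraces and 4587, 4446 and 4573 CPM in white RNAi thoraces (log2 fold change -1.81 ± 0.12 SE, adjusted p = 1.25e-06), which misses the size limit. bt (projectin), an elastic connecting protein, had 477, 525 and 552 CPM in heads, against 6042, 6347 and 7010 CPM in GFP RNAi thoraces and 5112, 5475 and 5654 CPM in white RNAi thoraces (log2 fold change -3.51 ± 0.09 SE, adjusted p = 2.29e-09). sls, the gene of kettin and Sallimus, had 578 to 669 CPM in heads, against 4086 to 4975 CPM in thoraces (log2 fold change -2.85 ± 0.08 SE, adjusted p = 5.1e-09), and Mf (myofilin) had 427 to 466 CPM in heads, against 3801 to 9015 CPM in thoraces (log2 fold change -3.50 ± 0.29 SE, adjusted p = 6.75e-06). Troponin subunits fell in the same range, with 185 to 198 CPM in heads against 1764 to 2339 CPM in thoraces for up (troponin T) and 157 to 165 CPM in heads against 1088 to 1413 CPM in thoraces for wupA (troponin I).

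Isoform families divided between tissues, as described after their values were seen. Of the 5 troponin C genes, TpnC41C had 20.8 to 20.9 CPM in heads against 301 to 452 CPM in thoraces and TpnC25D was higher in both contrasts, short of the size limit, with 122 to 140 CPM in heads against 49.2 to 67.7 CPM in thoraces. Of the 6 actin genes, the muscle actins Act79B, Act87E and Act88F were large differences lower in heads, with 42.4 to 42.6 CPM in heads against 772 to 1203 CPM in thoraces for Act79B and 79.1 to 91.4 CPM in heads against 481 to 637 CPM in thoraces for Act87E. Act57B, the remaining muscle actin, was lower in both contrasts short of the size limit, with 452 to 554 CPM in heads against 874 to 1018 CPM in thoraces. The cytoplasmic actins were near equal, with 994 to 1017 CPM in heads against 851 to 1105 CPM in thoraces for Act5C and 25.9 to 30.9 CPM in heads against 20.1 to 30.3 CPM in thoraces for Act42A. Their fitted log2 fold changes were -0.04 ± 0.08 (SE) for Act5C and 0.07 ± 0.11 (SE) for Act42A, smaller than the shift of 0.23 that scaling on total counts brings.

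Membrane and calcium handling genes of muscle differed less. Of 24 members that passed the filter, 2 were large differences lower in heads (8.33%) and 1 was higher (4.17%). Both shares were below those of all genes tested (9.06% and 6.66%). The median log2 fold change was -0.82. Ca-P60A, the calcium pump of the sarcoplasmic reticulum, had 888, 963 and 1017 CPM in heads, against 6260, 6732 and 10310 CPM in GFP RNAi thoraces and 7005, 5969 and 6461 CPM in white RNAi thoraces (log2 fold change -2.89 ± 0.17 SE, adjusted p = 6.46e-07). Rya-r44F, the ryanodine receptor through which calcium leaves that store, had 289 to 332 CPM in heads, against 776 to 1205 CPM in thoraces (log2 fold change -1.55 ± 0.10 SE, adjusted p = 2.46e-06). Msp-300, a nesprin around muscle nuclei, had 1115 to 1244 CPM in heads against 1843 to 2562 CPM in thoraces, and rhea (talin) 524 to 581 CPM in heads against 820.5 to 978 CPM in thoraces. The transcript pncr003:2L, which encodes the sarcolamban peptides that restrain the calcium pump, had 5.77 to 6.75 CPM in heads against 44.5 to 52.7 CPM in thoraces. Scgbeta, a sarcoglycan of the membrane complex, was the member higher in heads, with 28.5 to 35.5 CPM in heads against 4.64 to 5.56 CPM in thoraces.

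Nuclear genes of oxidative phosphorylation were lower in heads without exception among the 34 members, all of which passed the filter. All 34 were lower at an adjusted p under 0.05 in both contrasts (34.9% of all genes tested were), and 15 of them were large differences. Log2 fold changes ran from -2.95 to -1.17 with a median of -2.02, so the limit of size fell in the middle of the group. The count of large differences was 9 with scaling on ribosomal protein genes and 10 with scaling on total counts, and the median stayed below zero at -1.76 and -1.79. Their summed level was 9000 to 9740 CPM in heads, against 33200 to 48900 CPM in thoraces.

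ATPsyn-beta, the catalytic subunit of ATP synthase, had 1212, 1201 and 1239 CPM in heads, against 4272, 4398 and 7865 CPM in GFP RNAi thoraces and 4170, 3831 and 3883 CPM in white RNAi thoraces (log2 fold change -1.94 ± 0.20 SE, adjusted p = 5.62e-05). sesB, the ADP/ATP carrier, had 1297 to 1421 CPM in heads, against 3916 to 7129 CPM in thoraces (log2 fold change -1.72 ± 0.18 SE, adjusted p = 7.38e-05), and blw, the ATP synthase alpha subunit, had 962 to 1075 CPM in heads, against 2083 to 3221 CPM in thoraces (log2 fold change -1.22 ± 0.13 SE, adjusted p = 8e-05). SdhA, the flavoprotein of succinate dehydrogenase, had 319 to 347 CPM in heads, against 1963 to 2637 CPM in thoraces (log2 fold change -2.69 ± 0.11 SE, adjusted p = 5.71e-08). GFP RNAi replicate 3 was the highest thorax library for all 4 genes.

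Glycolysis and citrate cycle genes followed with smaller differences. Of 24 glycolysis and flight fuel genes, 21 were lower in heads in both contrasts (34.9% of all genes tested were). Only Ald was a large difference (4.17%, below the 9.06% of all genes tested), and the median log2 fold change was -0.99. Ald, the aldolase gene, had 1444, 1416 and 1396 CPM in heads, against 8676, 8985 and 11550 CPM in GFP RNAi thoraces and 7870, 7406 and 7573 CPM in white RNAi thoraces (log2 fold change -2.60 ± 0.10 SE, adjusted p = 4.31e-08). Argk, the arginine kinase that buffers ATP, had 1427 to 1604 CPM in heads against 2488 to 3506 CPM in thoraces, PyK (pyruvate kinase) 749.8 to 823 CPM in heads against 1339 to 1992 CPM in thoraces and Eno (enolase) 1032 to 1110 CPM in heads against 1980 to 2807 CPM in thoraces. Of 18 citrate cycle and proline genes, 13 were lower in both contrasts, with a median of -0.79. Large differences numbered 2 (11.1%, near the 9.06% of all genes tested). These were Acon, the aconitase, with 638 to 685 CPM in heads, against 5217 to 7354 CPM in thoraces (log2 fold change -3.16 ± 0.10 SE, adjusted p = 8.21e-09), and Nc73EF, a 2-oxoglutarate dehydrogenase subunit, with 822 to 869.5 CPM in heads, against 5054 to 6890 CPM in thoraces (log2 fold change -2.73 ± 0.08 SE, adjusted p = 8.12e-09). Men, the malic enzyme, had 714 to 860.1 CPM in heads against 834 to 1409 CPM in thoraces, and skap, a succinyl-CoA ligase subunit, 523 to 619 CPM in heads against 1002 to 1340 CPM in thoraces.

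**Figure D5:**
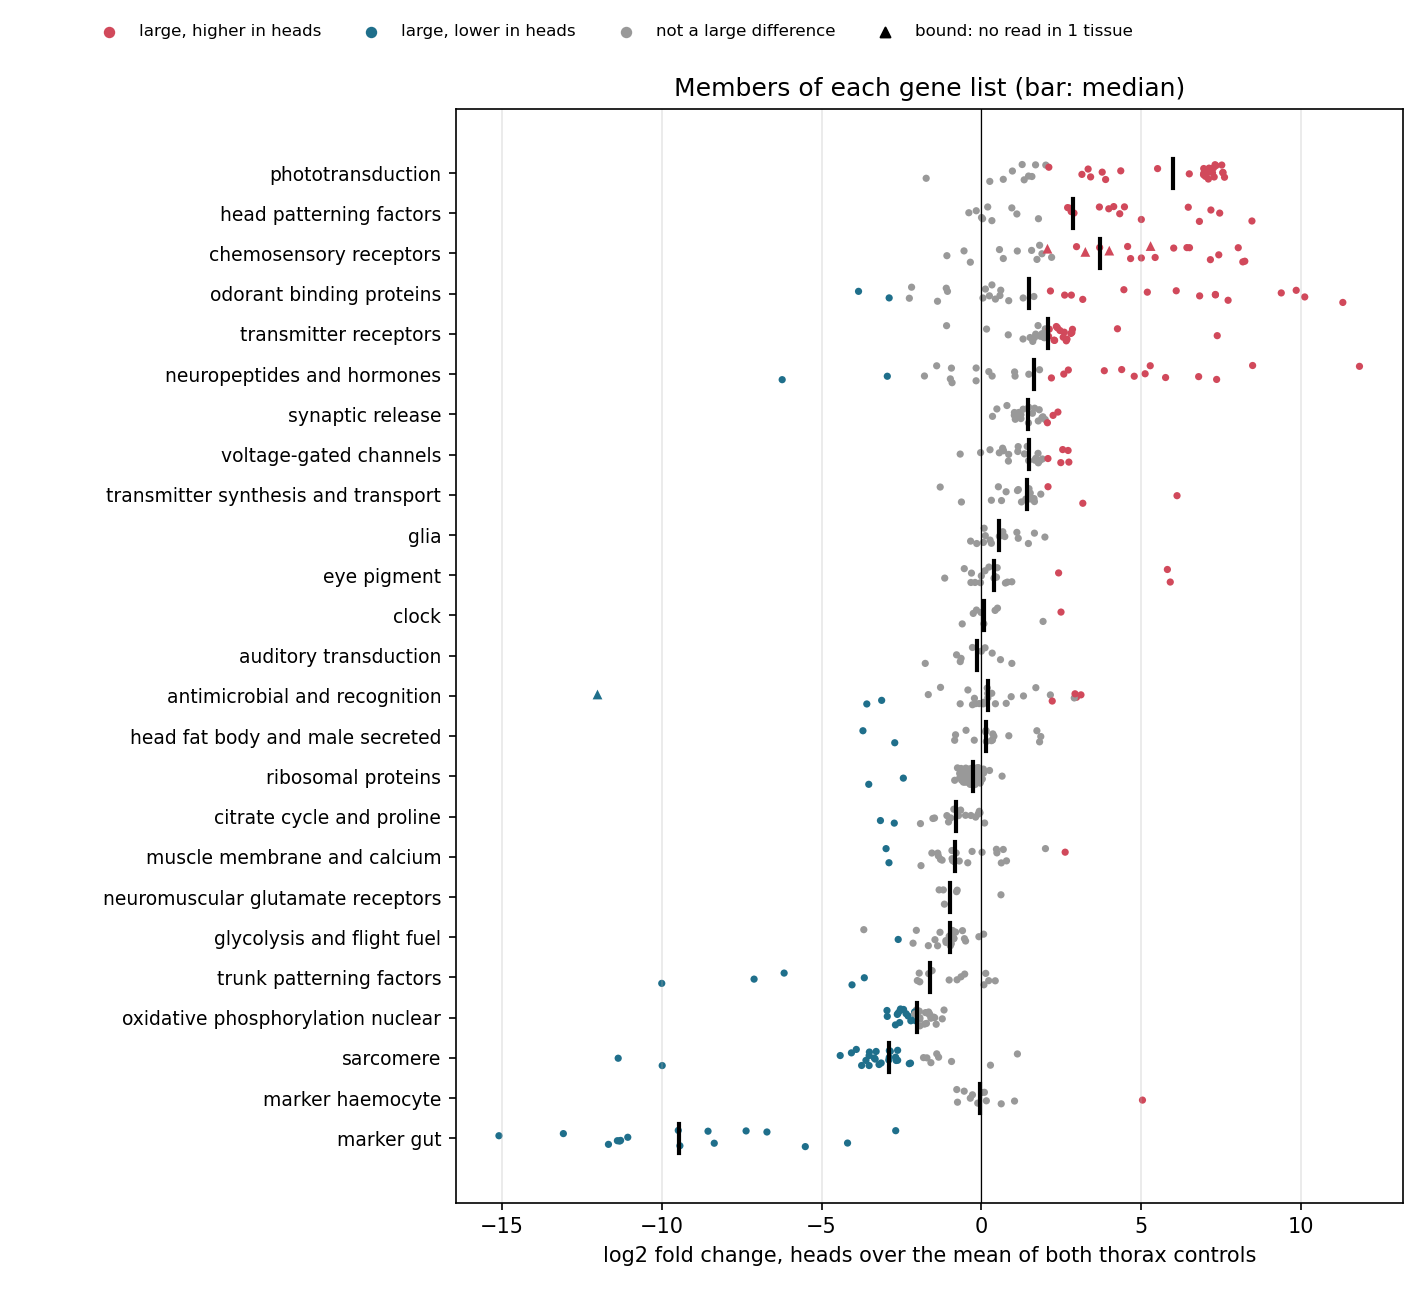
Log2 fold change, heads over the mean of both thorax controls, for each tested member of 25 gene lists; red and blue points are large differences, grey points all others, triangles are bounds for genes with no read in a tissue, and bars are list medians. Phototransduction has the highest median at 6.02, sarcomere genes lie to the left with a median of -2.88, and gut markers have the lowest median at -9.46.

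Ribosomal protein genes differed by small amounts. Of 88 genes 83 passed the filter. In both contrasts 47 were lower in heads and none was higher (34.9% and 35% of all genes tested were). Of the 47, 2 were large differences. The median log2 fold change of -0.27 became -0.05 with scaling on total counts. The 2 large differences (2.41%, below the 9.06% of all genes tested) were RpL22-like and RpS19b, paralogues at low levels. RpL22-like had 0.0357 to 0.109 CPM in heads against 0 to 1.65 CPM in thoraces. RpS19b had 0.0372 to 0.0956 CPM in heads against 0.0695 to 1.04 CPM in thoraces. Neither was a large difference without head replicate 1, without head replicate 3 or without GFP RNAi replicate 1.

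Of 17 fat body and male secreted genes that passed the filter, 2 were large differences lower in heads (11.8%, near the 9.06% of all genes tested). None was a large difference higher in heads, and the median log2 fold change was 0.16. The 2 lower genes, Fbp2 and Lsp1gamma, had under 1 CPM in heads. Rfabg, which encodes the main lipid carrier of the blood, had 4803 to 5660 CPM in heads, against 6448 to 7971 CPM in thoraces (log2 fold change -0.48 ± 0.08 SE, adjusted p = 0.00149). Tsf1 (transferrin) had 2455 to 3365 CPM in heads against 1538 to 2758 CPM in thoraces, and Tequila, a serine protease, 664 to 799 CPM in heads against 509 to 593 CPM in thoraces. Lsp2, a storage protein, had 1589, 647 and 336 CPM in heads, against 132, 116 and 45.3 CPM in GFP RNAi thoraces and 625, 813 and 584 CPM in white RNAi thoraces. Its log2 fold change was 3.13 against GFP RNAi thoraces and 0.35 against white RNAi thoraces, and head libraries overlapped white RNAi thoraces.

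Of 9 clock genes 1 was a large difference: per, a repressor of its own transcription, had 153, 137 and 136 CPM in heads, against 18.4, 22.7 and 22.4 CPM in GFP RNAi thoraces and 30.7, 29.2 and 29.8 CPM in white RNAi thoraces (log2 fold change 2.50 ± 0.07 SE, adjusted p = 1.49e-08). Its partner tim had 792, 644 and 555 CPM in heads, against 109, 122 and 126 CPM in GFP RNAi thoraces and 238, 268 and 254 CPM in white RNAi thoraces (log2 fold change 1.93 ± 0.10 SE, adjusted p = 5.04e-06), below the limit against white RNAi thoraces and above it against GFP RNAi thoraces. cry, the blue light receptor of the clock, had 295 to 309 CPM in heads against 268 to 293 CPM in thoraces, and vri, a transcriptional repressor, 184 to 207 CPM in heads against 235 to 324 CPM in thoraces. The median of the 9 was 0.08, and their share of large differences higher in heads was 11.1%, against 6.66% of all genes tested. The labels give no hour of collection.

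Immune genes had unequal replicates. Of 30 genes 28 passed the filter, 4 were large differences higher in heads (14.3%) and 3 were lower (10.7%, near the 9.06% of all genes tested), with a median log2 fold change of 0.19. The 4 higher ones (Mtk, Dro, AttC and DptB) encode antimicrobial peptides, and none was a large difference without head replicate 2, without the 3 thorax libraries highest in ninaE, or with replicate number in the model. Leaving out any other 1 library gave 1 to 5 such genes. AttC, as an example, had 17.8, 173 and 17.1 CPM in heads, against 4.24, 5.34 and 4.13 CPM in GFP RNAi thoraces and 12.9, 18.4 and 19.2 CPM in white RNAi thoraces. The constitutively abundant IM2, IM4 and nec were near equal, with 469.7 to 539 CPM in heads against 477 to 621 CPM in thoraces for IM2, 678 to 894 CPM in heads against 481 to 1049 CPM in thoraces for IM4 and 228 to 247 CPM in heads against 208 to 237 CPM in thoraces for nec. The lower genes were Drs, with 7.5 to 7.91 CPM in heads against 54 to 81.8 CPM in thoraces, PGRP-SC2, with 0.726 to 2.72 CPM in heads against 12.4 to 24.5 CPM in thoraces, and IM10, which is taken up below.

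Other cell types were followed through marker lists. All 16 gut markers that passed the filter were large differences lower in heads. Their summed level was 97.5 to 158 CPM in heads and 10400 to 12600 CPM in thoraces. The digestive proteases alphaTry and Jon65Aiii had 1.82, 0.683 and 0.67 CPM in heads, against 2855, 2651 and 2803 CPM in GFP RNAi thoraces and 2833, 2634 and 2582 CPM in white RNAi thoraces for alphaTry and 0.109 to 0.309 CPM in heads, against 691 to 786 CPM in thoraces for Jon65Aiii. Gut RNA was thus present at a similar level in all 6 thorax libraries, and its part in other genes lower in heads was not tested.

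Accessory gland markers, which encode seminal fluid proteins of the male abdomen, summed to 0.223 to 0.476 CPM in heads. In thoraces they summed to 199, 2.14 and 0.66 CPM in GFP RNAi replicates 1 to 3 and to 25.1, 143 and 0.561 CPM in white RNAi replicates 1 to 3. Of 12 genes that passed the filter 10 were called lower in heads. No call was left without any 1 head library, without GFP RNAi replicate 1 or without white RNAi replicate 2, and 5 were left without white RNAi replicate 1. Acp36DE had 0.0357, 0.041 and 0.0559 CPM in heads, against 62.5, 0.467 and 0.104 CPM in GFP RNAi thoraces and 6.76, 38.9 and 0 CPM in white RNAi thoraces. Testis markers summed to at most 3.74 CPM in heads and 13.9 CPM in thoraces, and 0 of 10 passed the test in both contrasts by edgeR's quasi-likelihood test. At an unadjusted p under 0.05 in both contrasts 0 of the 10 passed, DESeq2 called 1, and without head replicate 2, the highest head library, 7 of 12 were large differences lower in heads.

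The sum of haemocyte markers was 658 to 823 CPM in heads, against 666 to 786 CPM in thoraces. Hml, a clotting protein of blood cells, had 105 to 138 CPM in heads against 179 to 235 CPM in thoraces, and Cg25C, a collagen, 115 to 147 CPM in heads against 107 to 142 CPM in thoraces. Of 12 markers 1 was a large difference (8.33%, near the 6.66% of all genes tested that were higher in heads). This was lz, a factor of crystal cells that also acts in the eye. It had 14 CPM in every head library, against 0.264 to 1.08 CPM in thoraces. The median log2 fold change of -0.05 became 0.18 with scaling on total counts and 0.22 with scaling on ribosomal protein genes.

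Outside the lists, further genes stood out by level or fold among the large differences. Ank2, a long ankyrin of axons, had 1648, 2034 and 2411 CPM in heads, against 369, 405 and 459 CPM in GFP RNAi thoraces and 418, 403 and 397 CPM in white RNAi thoraces (log2 fold change 2.31 ± 0.11 SE, adjusted p = 3.29e-07). CG7829, a predicted protease gene, had 268, 209 and 192 CPM in heads, against 0, 0.434 and 0 CPM in GFP RNAi thoraces and 0, 0 and 0 CPM in white RNAi thoraces, with reads in only 1 thorax library. Among genes lower in heads, Cyp4g1, which makes the waterproofing hydrocarbons in oenocytes, had 1282, 883 and 828 CPM in heads, against 19470, 16840 and 15400 CPM in GFP RNAi thoraces and 19740, 20860 and 14750 CPM in white RNAi thoraces (log2 fold change -4.16 ± 0.20 SE, adjusted p = 1.12e-07). CG43897 had 386 to 402 CPM in heads, against 4888 to 7424 CPM in thoraces (log2 fold change -3.83 ± 0.11 SE, adjusted p = 6.76e-09).

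Some of the abundant genes lower in heads varied strongly among head libraries. Muc68D, a mucin gene, had 2.53, 37.1 and 66.4 CPM in heads, against 5902, 6139 and 6055 CPM in GFP RNAi thoraces and 7449, 7800 and 7960 CPM in white RNAi thoraces (log2 fold change -7.60 ± 1.01 SE, adjusted p = 0.000121). CG34220 had 5.82, 67.6 and 179.8 CPM in heads, against 7667, 7570 and 7540 CPM in GFP RNAi thoraces and 9357, 8387 and 9026 CPM in white RNAi thoraces (log2 fold change -6.61 ± 1.02 SE, adjusted p = 0.00032), and CG16826 had 28.4 to 138 CPM in heads, against 6756 to 9121 CPM in thoraces (log2 fold change -6.63 ± 0.54 SE, adjusted p = 3.72e-06). Head replicate 1 was the lowest head library for all 3 genes, while the thorax libraries stayed within a narrow range. Muc68E, another mucin gene, had 0 to 0.0186 CPM in heads, against 159 to 237 CPM in thoraces, and the protease gene Jon99Cii had 0 to 0.041 CPM in heads, against 451 to 1165 CPM in thoraces.

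Several genes that cells of both tissues use were listed at or near 0 in every library of a tissue. All 11 mitochondrially encoded genes that passed the filter had no read in any of the 6 thorax libraries, while mitochondrial genes held 759774 to 1360026 reads in each head library. mt:CoI, a cytochrome oxidase subunit, had 7096 to 7989 CPM in heads. These genes are counted among the 735, and no fold change is given for them.

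In the other direction, IM10, an immune-induced peptide, was listed at 0 in heads and at 145 to 225 CPM in thoraces. Prosalpha1, a core proteasome subunit that every cell needs, was listed at 0 in heads and at 42.9 to 57.1 CPM in thoraces. CG30382, which encodes a near-identical copy, had at most 1 read per head library. CG42638, CG34026, CG33502, CG32857 and MtnC had no read in heads, and Gyc76C, a guanylyl cyclase, had 1 read in 1 head library, against 133 to 161 CPM in thoraces. In all, 229 of the 999 lower genes had 3 reads or fewer in every head library, and 88 of the 735 higher genes had 3 reads or fewer in every thorax library. Without such genes 647 higher and 770 lower large differences were counted. Reads outside annotated features made up 5.09 to 5.22% of head libraries and 11.6 to 14% of thorax libraries. The cause of these zeros was not tested.

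The annotation used for neighbours places 161 of the 165 genes named by rule, of which 71 overlap another gene. Without strand in the counting, which the sources do not settle, reads of a gene and of its antisense neighbour cannot be told apart. With every overlapping or unplaced gene left out, 5508 genes remained, of which 411 were large differences higher in heads and 594 lower.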

How the data were processed

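The deposited files hold raw counts of reads per gene for 24 libraries, of which 9 were used: 3 of heads and 6 of thoraces, with groups taken from the labels. Libraries were made with a stranded mRNA kit (TruSeq), per the labels' protocols. Per the submitters' processing notes, reads were aligned with STAR to genome build BDGP5. The annotation, the counting program and its strand setting were not given in the sources used here. The 5 summary entries of each file (reads without a feature, ambiguous, not unique, not aligned and the like) were left out of library sizes and tests; they made up 23.6 to 25.4% of head files and 25.4 to 31.2% of thorax files.

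The counts were fitted with edgeR 4.0.16 in R 4.3.3 (quasi-likelihood F test, TMM scaling, 3 groups in 1 fit without covariates). Genes were kept with filterByExpr at a minimum count of 10 and a minimum total of 15. Heads were contrasted with GFP RNAi thoraces, with white RNAi thoraces and with the mean of both. The adjusted p printed is the larger of the Benjamini-Hochberg adjusted p-values of the first and second contrast, over all 11029 genes tested, and fold changes with their SE are those against the mean of both. For the genes flagged for a closer look, the adjusted p between the thorax controls is printed as well and named as such. Where a gene had no read in a tissue, a bound against 3 reads per library replaces the fold change. Counting error sets the precision of low levels: 3 reads are 0.0442 CPM in heads and 0.0991 CPM in thoraces.

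The members, gene lists and tests were chosen with earlier results of these data known. Named genes are, in each direction, the 10 highest in CPM and the 10 largest in fold change among large differences with at least 20 CPM in the higher tissue and no overlap, the 4 highest members of each gene list other than the marker and ribosomal protein lists, every called patterning factor (1 is not reported here) and opsin, and up to 2 members of each marker list. The following were chosen after their values were seen: Gprk1, rdgA, ninaD, Galpha49B, bw, se, ort, CG9317, ple, na, Ilp2, hug, Lk, burs, Or47b, Gr5a, Gr66a, Obp19a, a10, Os-E, Obp56a, Obp19b, Scr, TpnC41C, TpnC25D, the actins other than Act88F, pncr003:2L, Scgbeta, RpL22-like, RpS19b, per, AttC, Drs, PGRP-SC2, lz, and the genes given for being listed at or near 0. Older symbols follow the files. Gene overlap was read from the BDGP6 annotation, by name and without use of its coordinates in the text. Alternatives were other scalings, no filter, DESeq2 1.42.0, other size limits, a replicate block and leaving out each library. The fit was tested on simulated counts.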

Additional observations from a re-analysis of the deposited data

Results flagged for a closer look

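For 6 genes the level in heads lay between those of the thorax controls, with a log2 fold change of at least 1 in size and an adjusted p under 0.05 against each, and the thorax controls differed from each other in the same edgeR fit. They are part of 72 genes called with opposite signs at any size. Genotype and library cannot be told apart here, and no cause was tested.

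y, the yellow gene of dark cuticle pigment, was -6.81 on the log2 scale against GFP RNAi thoraces and 1.28 against white RNAi thoraces. It had 0.238, 0.219 and 0.186 CPM in heads, against 21.9, 23.2 and 28.8 CPM in GFP RNAi thoraces and 0.032, 0.20 and 0.033 CPM in white RNAi thoraces, so GFP RNAi thoraces stood apart from the other libraries. Its adjusted p was 4.72e-06 between the thorax controls and at most 0.0443 in the head contrasts. Gr43a, a taste receptor gene for fructose, was 2.21 against GFP RNAi thoraces and -3.29 against white RNAi thoraces. It had 0.416, 0.601 and 0.559 CPM in heads, against 0.0949, 0.10 and 0.139 CPM in GFP RNAi thoraces and 3.88, 5.46 and 6.14 CPM in white RNAi thoraces. Its adjusted p was 2.63e-05 between the thorax controls and at most 0.000128 in the head contrasts.

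CG11313 had log2 fold changes of 6.3 against GFP RNAi thoraces and -2.21 against white RNAi thoraces. It had 14.7, 12 and 13.1 CPM in heads, against 0.19, 0.20 and 0.104 CPM in GFP RNAi thoraces and 59.1, 62.1 and 62.9 CPM in white RNAi thoraces. Its adjusted p was 1.07e-08 between the thorax controls and at most 1.48e-08 in the head contrasts. CG7900 had log2 fold changes of 2.89 and -1.21 in the same order, with 23.6, 18.7 and 18.3 CPM in heads, against 2.91, 2.9 and 2.36 CPM in GFP RNAi thoraces and 47.2, 48.6 and 44.5 CPM in white RNAi thoraces. Its adjusted p was 1.02e-06 between the thorax controls and at most 3.74e-06 in the head contrasts. In both genes heads lay between the thorax controls.

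CG30484 and its neighbour in name CG30485 were low throughout. CG30484 had log2 fold changes of 2.7 against GFP RNAi thoraces and -3.61 against white RNAi thoraces, with 0.214 to 0.26 CPM in heads against 0 to 3.53 CPM in thoraces. Its adjusted p was 0.000841 between the thorax controls and at most 0.00934 in the head contrasts. CG30485 had 1.47 and -4.97 in the same order, with 0.107 to 0.246 CPM in heads against 0.0348 to 7.13 CPM in thoraces. Its adjusted p was 4.47e-05 between the thorax controls and at most 0.0174 in the head contrasts.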

How the results depend on the processing

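No large difference between heads and thoraces was called large in the opposite direction under any alternative run. Changes of sign among genes that lost the call were not counted over all genes. The counts, 735 higher and 999 lower, were 1590 and 1712 at a log2 limit of 1, 317 higher at a limit of 3, and 411 and 594 with overlapping or unplaced genes left out, where fewer genes were tested. Leaving out 1 library at a time gave 727 to 783 higher and 932 to 1078 lower genes. Scaling on total counts gave 934 higher and 907 lower genes, so the share of higher calls was 50.7% in place of 42.4%, and scaling on ribosomal protein genes gave 950 and 885 (51.8%). The 1455 genes called between the thorax controls became 3030 with ribosomal protein scaling, 512 without the 3 thorax libraries highest in ninaE and 493 without the 2 highest in Acp36DE. They ranged from 548 to 1398 with 1 library left out, lowest without white RNAi replicates 2, 3 and 1 (548, 720 and 914). Those of at least 2 on the log2 scale, 51, ranged from 34 to 79, and were 85 without the 3 libraries highest in ninaE.

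Genes that passed no test changed sign in places. IM2, at -0.18, was 0.049 with scaling on total counts and 0.094 with ribosomal protein scaling. Pdp1, at -0.01, was 0.22 and 0.261 under those scalings, 0.084 without the filter, 0.037 without the 3 libraries highest in ninaE and -0.036 to 0.054 without 1 library. IM4, at 0.06, was -0.005 without the ninaE libraries and -0.038 to 0.172 without 1 library, and Cg25C, at 0.10, was -0.024 to 0.168 without 1 library. The cause was not tested.

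Correlations of deviations between libraries with the same replicate number ran from -0.343 to 0.467; they were positive in all 3 pairs of replicate 3 (0.13, 0.175 and 0.467) and mostly negative in the others, so the numbers were not taken to pair libraries. A fit with the replicate block called 735 higher and 979 lower genes, and Acp26Aa missed the threshold there (adjusted p = 0.0542). DESeq2 called 705 higher and 1016 lower genes and gave no adjusted p for 36, of which 13 were phototransduction genes, so that it called 13 of that group. Low depth limits receptors and other genes near the floor of 3 reads.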

Other observations

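Gene families grouped by symbol, a grouping made after the values were seen, added some descriptions. Odorant receptors (Or) numbered 59 in the files, of which 44 passed the filter and 38 were large differences higher in heads, none lower. Their median log2 fold change was 5.16 as fitted and 4.14 with the 8 genes that had no thorax read at their bounds. Their summed level was 76.1 to 84.1 CPM in heads, against 9.8 to 12.3 CPM in thoraces. Besides Or47b, the receptors without a thorax read included Or85e, at least 19.5-fold higher in heads, and Or65a, at least 16.1-fold higher. Of 18 gustatory receptors (Gr) that passed the filter, 7 were large differences higher (38.9%) and 2 lower (11.1%). Of 22 ionotropic receptors (Ir) 8 were higher (36.4%) and 3 lower (13.6%). Over all genes tested, 6.66% were large differences higher and 9.06% lower. The few lower genes are therefore not read as a trait of either family.

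The CheA and CheB genes, small proteins of taste hairs in part known from the front legs of males, were lower in heads in 20 of 20 cases. Their summed level was 12.3 to 15.4 CPM in heads, against 638 to 689 CPM in thoraces. The median log2 fold change was -9.65 as fitted and -6.95 with 4 genes that had no head read at their bounds.

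Surface proteins of neurons differed by similar amounts within a family. All 19 dpr genes were higher in heads in both contrasts, between 1.44 and 2.38 on the log2 scale, with 5 large differences (26.3%). All 14 beat genes were higher as well, between 1.1 and 2.32, with 5 large differences (35.7%). All 10 nicotinic receptor subunits were higher, between 1.31 and 2.46, with 2 large differences (20%). Over all genes tested, 35% were higher in both contrasts at any size and 6.66% were large differences higher.

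Genes of secretory and digestive families were lower in heads. All 8 Jon proteases that passed the filter summed to 1.04 to 1.8 CPM in heads and 3580 to 5120 CPM in thoraces. Of 13 mucin genes (Mur and Muc) 8 were large differences lower (61.5%, against 9.06% of all genes tested). Only 1 was higher (7.69%, near the 6.66% of all genes tested). Of 6 lysozyme genes (Lys) 5 were large differences lower (83.3%, against 9.06% of all genes tested). Their summed levels were 4.99 to 14.8 CPM in heads and 880 to 1150 CPM in thoraces. Of 30 tetraspanins (Tsp) 8 were large differences lower (26.7%, against 9.06% of all genes tested) and none was higher by edgeR. At any size 16 were lower and 9 higher in both contrasts (34.9% and 35% of all genes tested were). Npl4, a cofactor in protein degradation, had 86.9 to 93.7 CPM in heads against 3800 to 4490 CPM in thoraces, and it overlaps another gene in the annotation.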
